A study of Mus musculus with 6 samples.

Results

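Ribosome profiling (Ribo-seq), which sequences the mRNA fragments held by translating ribosomes, was performed on 6 tissues of untreated wild-type C57BL/6J mice at 4 weeks of age, with 1 library per tissue. Here 4 libraries, labelled brain, colon, kidney and lung, were set against 2 libraries, labelled heart and small intestine. The sides were formed from tissue markers measured in these same libraries, because for 4 of the 6 labels the markers were those of another tissue. The library labelled brain carried markers of small intestine, that labelled colon markers of kidney, that labelled kidney markers of colon, and that labelled small intestine markers of brain. For the labels lung and heart, markers and label were the same. The 4 libraries are therefore those with markers of organs lined by epithelium, and the 2 libraries those with markers of heart and brain. Every library is named below by its label. Syt1, a synaptic vesicle protein, was read at 2332 RPKM under the label small intestine, Umod, the uromodulin of the kidney, at 16438 under the label colon, and Muc2, the mucin of goblet cells, at 2486 under the label kidney. These markers set the sides and are no result of the comparison.

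Ribosome density was given as RPKM (reads on the coding sequence scaled to its length and to the total of the library), and differences were taken on log2(RPKM + 1). An mRNA was taken as a member when it was listed in all 6 libraries and its lowest value on one side lay at least 1 above the highest value on the other, a distance called the gap. Of 18437 mRNAs listed in any library, 9789 were listed in all 6, and 403 of these were members. There were 283 mRNAs higher in the 4 libraries (2.89%) and 120 higher in the 2 libraries (1.23%), and these percentages are the background against which counts in gene lists are read. Without the gap, the sides did not overlap for 1211 mRNAs higher in the 4 (12.4%) and 667 higher in the 2 (6.81%). Tissues are not replicates of each other, so the gap is a description, with no test and no standard deviation. The labels do not name the animal behind each library.

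Epithelia are sheets of polarised cells joined by adherens and tight junctions, with keratin filaments inside and an apical face turned to a lumen. Heart muscle and neurons are excitable cells, which move sodium, potassium and calcium ions through gated channels, pump calcium back, and hold these proteins in place with ankyrins and spectrins. Both need a large and steady supply of ATP. In a whole tissue, fewer cells of a type and less RNA per cell cannot be told apart, and the same holds for mRNA level and ribosomes per mRNA.

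The libraries held between 4504853 reads on coding sequences, in the library labelled colon, and 10635031, in that labelled brain. Reads recovered from the RPKM values gave the counting error used here, as exact 95% Poisson intervals, which do not cover the spread between animals. Kri1 alone made up 22.1% of the reads under the label kidney and 14.1% under the label small intestine, against 0.40% under the label lung, which lowers the RPKM of all other mRNAs there. Over all 9789 mRNAs the mean log2 of the 4 libraries exceeded that of the 2 by a median of 0.15, which became -0.10 with median-of-ratios scaling. The split of 283 and 120 became 195 and 195 with that scaling, and 225 and 183 with quantile normalization. It became 206 and 50 when at least 10 reads were required in every library, and 296 and 115 with Kri1 left out of the totals. Markers of one tissue were also read at low levels in other libraries. Tnnt2, the troponin T of heart muscle, had 20788 RPKM under the label heart, 193 under the label lung and 105 under the label colon, and the part of such reads in the results was not tested.

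Promoter sequences, which the rule did not use, were searched for 6 motifs. A promoter of 250 bases before to 50 after the start was found in RefSeq (GRCm38.p6) for 218 of the 283 genes and for 94 of the 120 genes. The MEF2 motif CTATTTNTA, bound by factors of muscle and neurons, was searched on both strands and found in 5 of 145 promoters of genes higher in the 2 libraries (3.45%, 95% Wilson interval 1.48% to 7.82%). It was found in 1.47% of the promoters of genes higher in the 4, in 0.945% of those of all genes listed in all 6 libraries, and in 1.34% of all promoters. The 5 matches are shown because Ak1, Fgf13 and Mapre3 return below, with the motif in capitals and 10 bases on each side where the promoter reached that far. Capitals that start with TA hold the motif on the opposite strand.
Ak1: ctgacagcctTATAAATAGtcgcctttgc
Fgf13: ttggtttcacTAAAAATAGctgcaatata
Mapre3: ctgTAGAAATAGaagtaaaggc
Ndrg2: cgttcatcctCTATTTATAgcggccccca
Speg: ccgggggcccTAAAAATAGtccctgaggc

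On GRCm38.p6 these windows lie at chr2:32625448-32625476 on the plus strand for Ak1, chrX:59585705-59585733 on the minus strand for Fgf13 and chr5:30814391-30814412 on the plus strand for Mapre3. Those of Ndrg2 and Speg lie at chr14:51914018-51914046 on the minus strand and chr1:75375237-75375265 on the plus strand. The TEAD motif CATTCC, bound by factors that act with YAP, was found in 19.0% of the promoters of genes higher in the 4 (14.8% to 24.1%) and 8.97% of those higher in the 2 (5.31% to 14.7%). It was found in 12.2% of those listed in all 6 and in 14.7% of all promoters, close to the lower limit for the side of the 4. The cyclic AMP response element TGACGTCA was found in 2.20% and 2.07% of the promoters on the sides of the 4 and the 2, against 2.89% of those listed in all 6 and 1.79% of all promoters. The short HNF1 motif GTTAAT was found in 5.49% and 3.45%, against 4.54% and 7.10%. The estrogen-related receptor motif TNAAGGTCA was found in 0.733% of promoters of genes higher in the 4 and in none of those higher in the 2, against 0.711% and 1.28%. The grainyhead-like motif AACCGGTT was found in 0.366% and 0, against 0.244% and 0.146%. A share of 0 of these 145 promoters has an upper 95% Wilson limit of 2.58%, and a match is not a bound site. Some genes had several promoters, with 145 from 94 genes on the side of the 2 and 273 from 218 on that of the 4. The intervals count each promoter as independent, and the shares are not per gene.

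The member furthest from the other side among those higher in the 4 libraries was Ehf, an ETS transcription factor of epithelial cells (chromosome 2, 103093778 to 103133623, minus strand, GRCm39). In values given from here on in the order brain, colon, kidney and lung for the 4 and heart and small intestine for the 2, its RPKM was 132, 113, 265 and 137 against 3.80 and 2.91. All 4 values lay within 1.22 of each other on the log2 scale, and the gap was 4.57 (4.00 to 5.15 with the ends of the Poisson intervals). S100g, the calcium-binding protein calbindin-D9k, had 124, 512, 132 and 80.8 RPKM against 4.64 and 1.10, highest under the label colon, the library with kidney markers. Its gap was 3.86 (2.82 to 4.94). The library labelled brain was highest for Eps8l2, an actin regulator of the Eps8 family, with 442, 91.2, 51.4 and 131 RPKM against 1.01 and 2.75.

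Further leading members of this side were Gipc2, Papss2, Rassf7, Marveld3 and Cldn8, with gaps from 3.30 to 3.93. Papss2, which makes the sulfate donor of sulfotransferases, was high in all 4 libraries, with 323, 283, 199.7 and 132 RPKM against 11.6 and 5.83. Cldn8, a claudin of the tight junction, had 23.1, 123, 128 and 37.2 RPKM against 1.45 and 0.775. For all 8 leading members named here, the libraries labelled heart and small intestine were both at or under 11.6 RPKM.

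**Figure D1:**
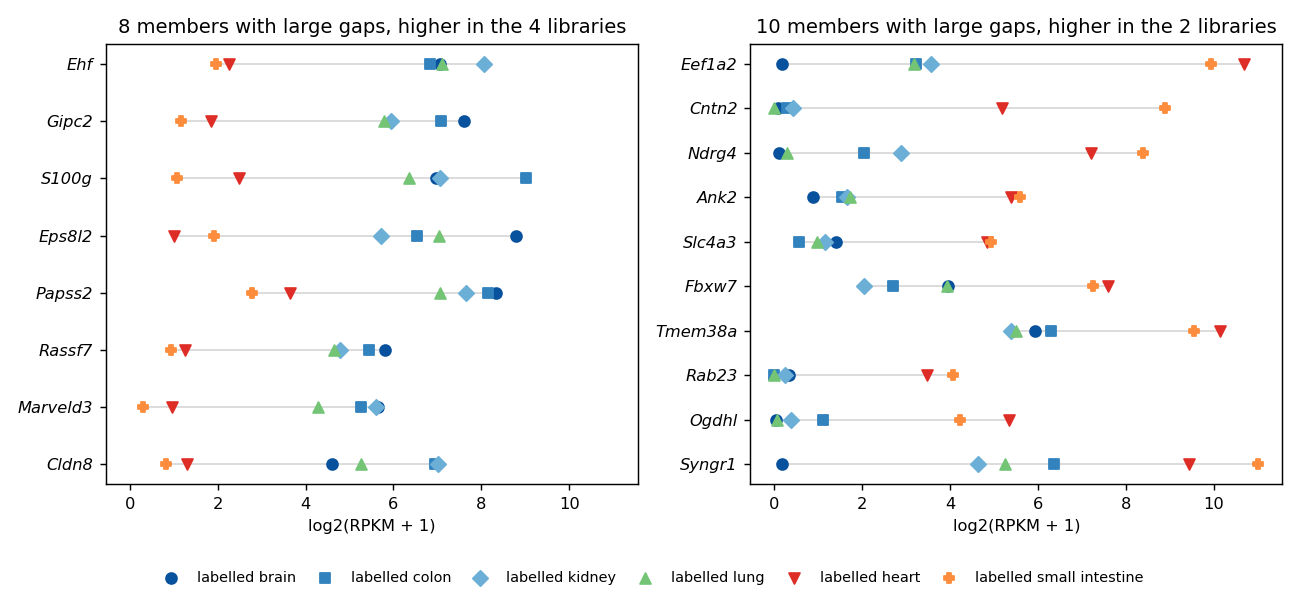
log2(RPKM + 1) in each of the 6 libraries (points, by label) for 8 of the 10 members with the largest gap higher in the 4 libraries and the 10 with the largest gap higher in the 2, with a grey line over the range of all 6. On the left each of the 4 libraries lies to the right of the libraries labelled heart and small intestine, with a wide spread among the 4 for some members. On the right the order is turned, with Eef1a2 at the widest gap of 6.37.

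Junction proteins gave the longest row of members. The sides were formed from tissue markers in these libraries, and the lists were chosen with earlier results of these data known. Counts in lists, here and below, therefore describe the sides and are no independent evidence. Of 27 listed mRNAs of epithelial junctions and polarity, 12 were higher in the 4 libraries and none in the 2, against a background of 2.89%, and the median of the list (mean log2 of the 4 minus that of the 2) was 2.90 against 0.15 for all mRNAs. Cdh1, the E-cadherin of the adherens junction (chromosome 8, 107329941 to 107396880), had 373, 75.6, 624 and 170.1 RPKM against 10.2 and 6.91, with a gap of 2.78 (2.51 to 3.05). Marveld3, a tight junction protein, had 48.9, 37.1, 47.6 and 18.4 RPKM against 0.952 and 0.227. Cgn, the tight junction scaffold cingulin, had 43.9, 15.0, 20.8 and 20.7 RPKM against 0.683 and 1.61. In each of these the lowest of the 4 libraries was that labelled colon or lung. Further members beside Cldn8 were Cldn4, Cldn7, F11r, Lsr, Ocln and the polarity proteins Crb3 and Llgl2, and Pkp3, a plakophilin, with gaps between 1.12 and 2.24.

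Desmosomal proteins that heart muscle also uses, here Dsp and Jup, were not members. Dsp, which links desmosomes to filaments and is found in the intercalated disc, had 118, 8.34, 43.6 and 22.9 RPKM against 96.1 and 1.81. Jup, plakoglobin, had 127, 48.2, 57.1 and 246 RPKM against 106 and 16.7. Epcam, an epithelial adhesion molecule, had 1130.0, 61.8, 1175 and 27.0 RPKM against 23.5 and 19.9, so the sides did not overlap but the gap was only 0.19. Cldn3 was low in the library labelled colon, at 0.676 RPKM, and overlapped.

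Of 5 listed keratins, 3 were higher in the 4 libraries. Krt8, which pairs with Krt18 in simple epithelia, had 3707, 160.1, 1585 and 219 RPKM against 46.1 and 45.4, with a gap of 1.78 (1.57 to 1.98). Krt18 had 57.7, 19.2, 61.6 and 29.8 RPKM against 4.62 and 2.27, and Krt7 had 45.7, 18.8, 21.1 and 95 RPKM against 3.92 and 0.191. The levels of Krt8 spread over 4.53 on the log2 scale within the 4 libraries, more than its gap. Krt19 and Krt20 were members on neither side. Krt19 had 4.41 RPKM under the label colon, its lowest value in the 4, and 28.7 under the label heart. Krt20 had 2.06 and 1.40 RPKM under the labels colon and lung, and 23.5 and 97.1 in the 2 libraries. The Methods leave out reads that map to several places, which makes the level of a CDS with near-identical copies, such as those of Krt8, Krt18 and Eef1a1, uncertain.

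Of 14 listed epithelial transcription and splicing factors, 7 were higher in the 4 libraries and none in the 2, while 11 further genes of the list were not listed in every library. Among these were Ehf, Elf3, Grhl2, Tfcp2l1 and Esrp2. Elf3, an ETS factor like Ehf, had 809.5, 58.9, 452 and 51.1 RPKM against 4.48 and 8.48. Tfcp2l1, a grainyhead-related factor, had 14.5, 72.9, 25.7 and 16 RPKM against 1.02 and 0. Esrp2, which sets the epithelial pattern of splicing, was low but even, with 10.3, 6.30, 5.64 and 6.74 RPKM against 0.170 and 0.122. Its relative Esrp1 was no member, with 14.1, 0, 13.1 and 0.127 RPKM against 0.718 and 0.448. Hnf4a, a nuclear receptor of gut, liver and kidney, was no member. It had 134, 85.4 and 72.4 RPKM in the libraries labelled brain, colon and kidney but 0.0910 in that labelled lung.

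Apical traffic and microvilli gave 8 members of 21 listed, all higher in the 4 libraries. Rab11fip1, an effector of recycling endosomes, had 54.5, 16.8, 20.7 and 45.8 RPKM against 1.71 and 0.561. Myo5b, the motor of these endosomes, had 26.2, 22.3, 14.9 and 16.6 RPKM against 2.65 and 2.86. Myo1d, a membrane-bound myosin, had 197, 41.2, 113 and 127 RPKM against 6.11 and 8.76. The list also held Eps8l2, Ap1m2, Vamp8 and Stx3. Ezr, the ezrin that ties actin to the apical membrane, had 672, 232, 135 and 329 RPKM against 48.9 and 30.3. Vil1, the villin of the brush border, was no member, with 1330.3 RPKM in the library labelled brain and 0.417 in that labelled lung.

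Of 6 listed membrane serine proteases and their inhibitors, 4 were higher in the 4 libraries. St14, the protease matriptase, had 95.9, 22.8, 162 and 24.2 RPKM against 1.38 and 2.96. Spint1 and Spint2 inhibit it. Spint1 had 107, 34.2, 108 and 18.5 RPKM against 3.13 and 2.67, and Spint2 had 903, 99.2, 565 and 101 RPKM against 23.4 and 14.5. Tmprss2 was the remaining member, with a gap of 1.80. Prss8, prostasin, was not listed in the library labelled heart, and had 9.80, 116, 10.8 and 39.7 RPKM in the 4 libraries against 0.129 in that labelled small intestine.

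Mucosal glycosylation and secretion gave 2 members of 12, Galnt3 and Galnt4, which start O-glycans, with gaps of 1.84 and 1.03. Among detoxification enzymes 2 of 19 were members, with gaps of 1.34 for Adh1, an alcohol dehydrogenase, and 1.17 for Mgst1, a glutathione transferase. The cell cycle list gave 4 of 18. Mcm6, a subunit of the replicative helicase, had 35.6, 21.5, 21.5 and 24.2 RPKM against 4.56 and 4.09, and the other members were Mcm5, Rrm2 and Ccnd1, with gaps from 1.03 to 1.34. Mcm2 and Mki67 lay just under the threshold, with gaps of 0.99 and 0.95. The medians of these lists, as the mean log2 of the 4 less that of the 2, were 3.21 for keratins, 3.25 for transcription and splicing factors, 2.87 for apical traffic and 3.86 for membrane proteases. They were lower for mucosal glycosylation (1.63), detoxification (1.55) and the cell cycle (2.01), and all lay above the 0.15 of all mRNAs.

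Outside the lists, and chosen after their values were seen, S100a10, the annexin A2 partner, was among the most abundant members, with 15109.6, 3591, 5950.4 and 4549.8 RPKM against 646 and 538. Itga6, the laminin receptor subunit of hemidesmosomes, had 83.5, 67.0, 83.0 and 74.6 RPKM against 11.9 and 7.41. Its range of 0.31 within the 4 libraries was far under its gap of 2.40. Erbb2, a receptor tyrosine kinase, had 149, 53.3, 55.4 and 75.6 RPKM against 8.21 and 4.10.

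**Figure D2:**
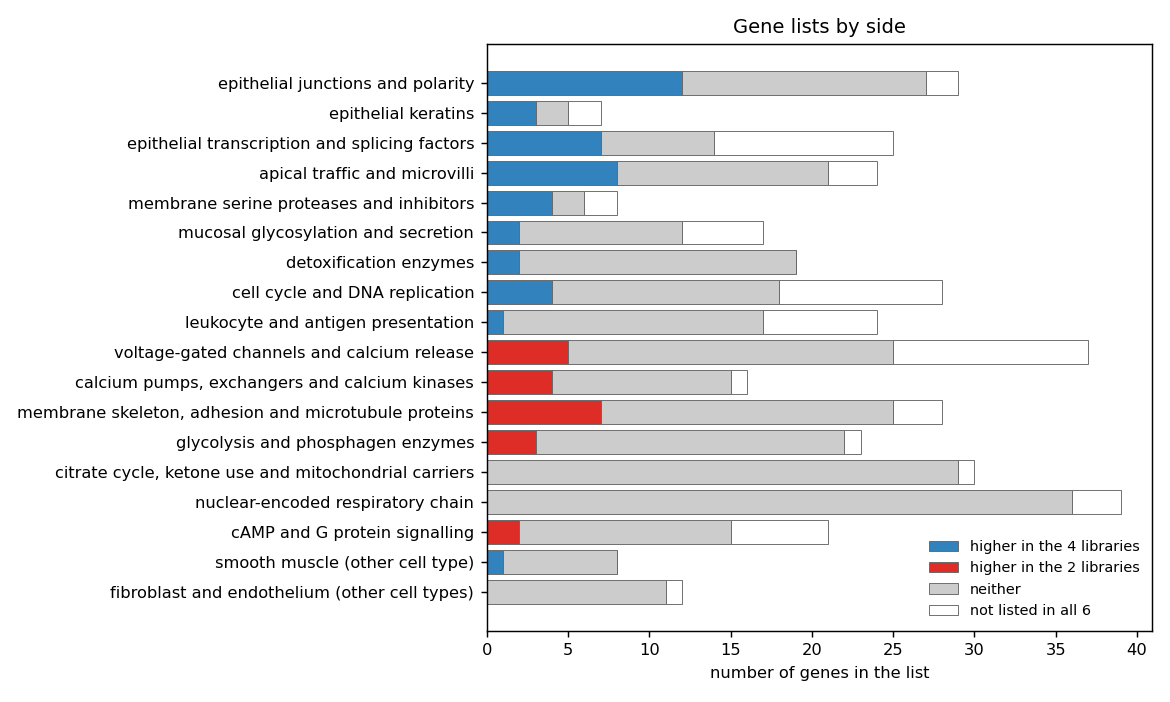
Number of genes in each of 18 lists that were higher in the 4 libraries (blue), higher in the 2 (red), neither (grey) or not listed in all 6 libraries (white). Blue bars are found in the epithelial lists and in those of detoxification, the cell cycle, leukocytes and smooth muscle. Red bars are found in the lists of channels, calcium handling, membrane skeleton, glycolysis and cAMP signalling, and no list holds both.

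On the side of the 2 libraries, Eef1a2 had the largest gap of all members. It encodes the form of the elongation factor eEF1A that muscle and neurons use (chromosome 2, 180778581 to 180799838, minus strand). Its RPKM was 0.135, 8.31, 10.7 and 8.01 in the 4 libraries and 1633 and 969 in the 2, with a gap of 6.37 (6.10 to 6.65) and a ratio of 90.3 between the closest libraries, labelled small intestine and kidney. Cntn2, the cell adhesion molecule contactin 2 of axons, had 0.0603, 0.213, 0.338 and 0 RPKM against 35.1 and 472. Ndrg4, a protein of the NDRG family, had 0.0776, 3.11, 6.42 and 0.213 RPKM against 146 and 335. In all of these every library of the 4 was at or under 10.7 RPKM.

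The next members in order of gap were even between both libraries of their side. Ank2, the ankyrin that anchors ion exchangers and channels, had 0.846, 1.88, 2.15 and 2.27 RPKM against 40.9 and 47.0, with a gap of 3.68. Slc4a3, the anion exchanger AE3, had 1.66, 0.482, 1.22 and 0.949 RPKM against 27.4 and 29.4. Fbxw7, which selects proteins for ubiquitination, had 14.5, 5.52, 3.10 and 14.2 RPKM against 192 and 151. Tmem38a, a cation channel of the sarcoplasmic reticulum, had 60.2, 77.7, 40.7 and 44.1 RPKM against 1129 and 744. The remaining leading members were Rab23, Ogdhl and Syngr1, with gaps from 3.06 to 3.14, and of these Syngr1, a protein of synaptic vesicles, reached 81.3 RPKM in the library labelled colon against 686 and 2059.

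**Figure D3:**
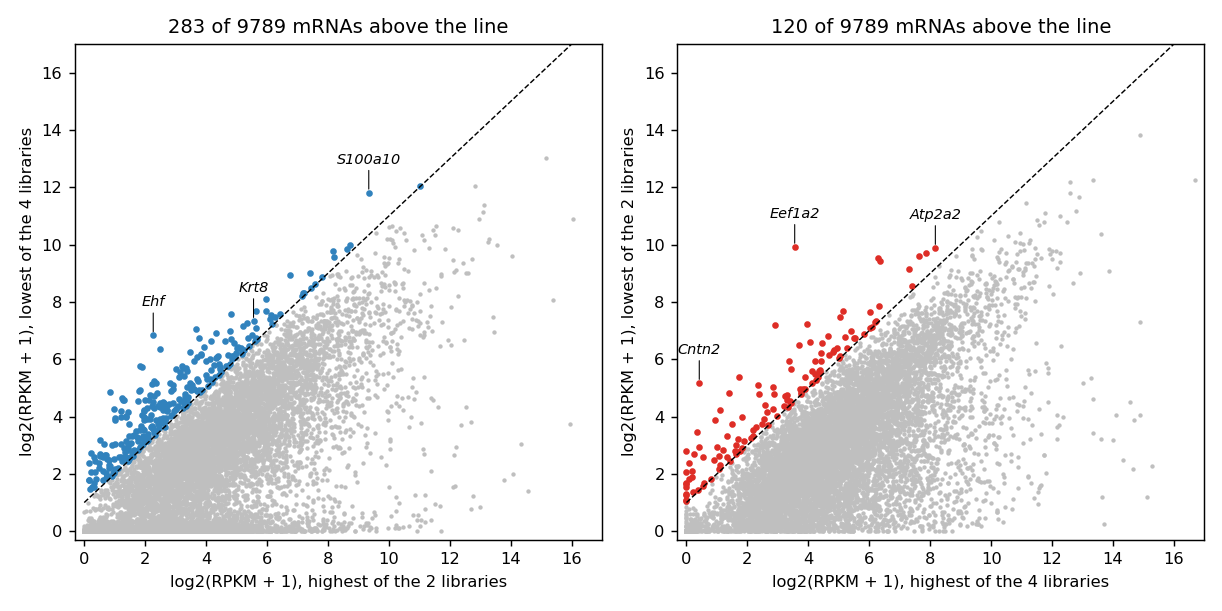
All 9789 mRNAs listed in all 6 libraries, with the highest log2(RPKM + 1) of one side on the x axis and the lowest of the other side on the y axis, for the 4 above the 2 (left) and the 2 above the 4 (right). The dashed line is a gap of 1, with 283 mRNAs (blue) and 120 mRNAs (red) on or above it, and Eef1a2 stands furthest above it.

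Of 25 listed voltage-gated channels and calcium release channels, 5 were higher in the 2 libraries (background 1.23%) and none in the 4, and the list median was -2.32. Fgf13, a partner of sodium channels (chromosome X, 58106279 to 58613431), was at 0 in all 4 libraries and had 5.99 and 13.2 RPKM in the 2, where 3 reads would give at most 0.906 RPKM in any of the 4. Kcnj3, a potassium channel opened by G proteins, had 0, 0.443, 0.175 and 0 RPKM against 7.07 and 5.05. Ryr2, the calcium release channel of the heart, had 0.221, 1.48, 1.30 and 1.5 RPKM against 163 and 9.04. Cacna2d1 and Cacna1c, subunits of the L-type calcium channel, were members with gaps of 1.80 and 1.06. Kcna2, a potassium channel of axons, was no member, with 52.4 RPKM under the label small intestine and 0.0816 under the label heart.

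Calcium pumps, exchangers and calcium kinases gave 4 members of 15. Atp2a2, the SERCA pump that returns calcium to the reticulum (chromosome 5, 122591575 to 122640903), had 178, 287, 200.2 and 175 RPKM against 11032 and 943. The library labelled heart lay 3.55 above that labelled small intestine, more than the gap of 1.71. Rcan2, an inhibitor of calcineurin, had 0, 14.3, 1.45 and 15.6 RPKM against 223 and 96.0. Ppp3ca, the calcineurin subunit itself, had 19.9, 15.8, 5.82 and 0.0828 RPKM against 48.8 and 394, and Camk2g had a gap of 2.17. Its relative Camk2a was read at 6863 RPKM under the label small intestine but at 7.83 under the label heart, less than the 20.8 under the label brain, and was no member.

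Membrane skeleton, adhesion and microtubule proteins gave 7 members of 25. Ank1 had 0.0164, 0.116, 0.300 and 0.927 RPKM against 13.8 and 15.0, and Sptb, the spectrin it binds, had 0.0269, 0.858, 0.283 and 0.0185 RPKM against 11.7 and 4.62. Sgcb, a sarcoglycan, had 3.92, 28.2, 17.3 and 32.2 RPKM against 398 and 177. Cdh2, the N-cadherin of heart and neurons, had 2.80, 2.86, 4.08 and 3.66 RPKM against 93.4 and 33.1. Its gap of 2.75 (2.39 to 3.11) was of the size of that of Cdh1 in the other direction. Ank2, Cdh13 and Mapre3 were the other members. Of 15 listed mRNAs of cAMP and G protein signalling, 2 were members, Prkaca, the catalytic subunit of protein kinase A, with 48.0, 64.5, 55.5 and 49.0 RPKM against 340.0 and 202, and Akap6, which anchors that kinase, with 0.326, 0.160, 1.81 and 1.01 RPKM against 21.7 and 12.4.

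Energy metabolism split between both libraries of the side. Of 22 listed mRNAs of glycolysis and phosphagen enzymes, 3 were members, Ak1, Pfkm and Pkm. Ak1, adenylate kinase, had 15.4, 156, 12.1 and 130.2 RPKM against 5329.8 and 566. Pfkm, the muscle phosphofructokinase, had 0.643, 13.7, 1.41 and 9.56 RPKM against 231 and 40.5. None of 29 mRNAs of the citrate cycle, ketone use and mitochondrial carriers and none of 36 of the respiratory chain were members. When the library labelled heart alone was set against the 4, 19 of the 29 and 27 of the 36 passed, and so did 15 of the 22 glycolytic mRNAs, against a background of 5.83%. With the library labelled small intestine alone, 0, 0 and 6 passed, against 8.74%. Cs, citrate synthase, had 132, 61.1, 58.6 and 65.2 RPKM in the 4 libraries, 542 under the label heart and 44.2 under the label small intestine. Channels ran the other way, with 8 of 25 for the library labelled heart alone and 18 of 25 for that labelled small intestine alone. These comparisons share the 4 libraries. The list medians were -2.12 for calcium pumps and kinases, -2.70 for the membrane skeleton, -2.40 for glycolysis, -1.05 for the citrate cycle, -0.92 for the respiratory chain and -0.73 for cAMP signalling.

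**Figure D4:**
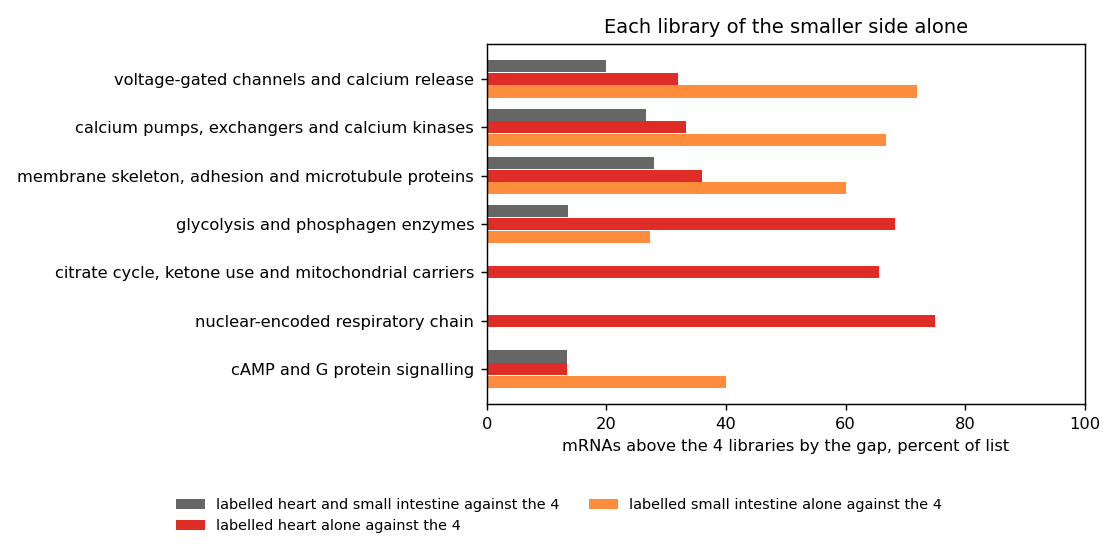
Percent of the listed mRNAs of each list whose log2(RPKM + 1) lay at least 1 above the highest of the 4 libraries, with both libraries of the smaller side required (grey) or with that labelled heart (red) or small intestine (orange) alone. The library labelled heart alone gives 75% for the respiratory chain where both together give 0, and the library labelled small intestine alone gives 72% for channels.

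Related genes were compared within 30 pairs, where the first gene was chosen as a form known from muscle or neurons. In some pairs the second gene is such a form too, as Ckb, the creatine kinase of brain, is beside Ckm. The log2 difference between the genes was larger in both of the 2 libraries than in each of the 4 for 16 of the 29 pairs listed in full. The pairs were chosen for known use in muscle or neurons and no share over other pairs stands beside this count, so it describes these pairs only. The first gene was a member of the side of the 2 libraries in 9 pairs and the second a member of the side of the 4 in 3 pairs, among them Cdh1 and Actn4, and no pair had a member on the reverse side. Cdh2 and Cdh1 were the only pair with members on opposite sides. Their log2 difference was -6.62, -4.31, -6.94 and -5.20 in the 4 libraries and 3.08 and 2.11 in the 2.

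For Eef1a2 and Eef1a1 the log2 difference ran from -11.13 to -7.38 in the 4 libraries and was 0.97 and -0.07 in the 2. Eef1a1, the common form of the factor, had 2538, 1555, 2352 and 4908 RPKM against 836 and 1019 and was no member, with a gap of 0.61 towards the 4. For Ndrg4 and Ndrg1 it ran from -8.03 to -2.16 in the 4 libraries and was 3.84 and 3.92 in the 2. Some other pairs did not separate the sides. Ckm, the creatine kinase of muscle, less Ckb, that of brain, gave 6.05 under the label heart and -7.00 under the label small intestine. Actn2 and Actn4 did separate the sides, with log2 differences from -8.14 to -4.14 in the 4 libraries and of 5.19 and -2.16 in the 2. Yet Actn2, the actinin of the sarcomere, was high under the label heart alone, at 651 RPKM. Actn4, its non-muscle form, had 291, 98.7, 124 and 145 RPKM against 16.8 and 15.7.

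**Figure D5:**
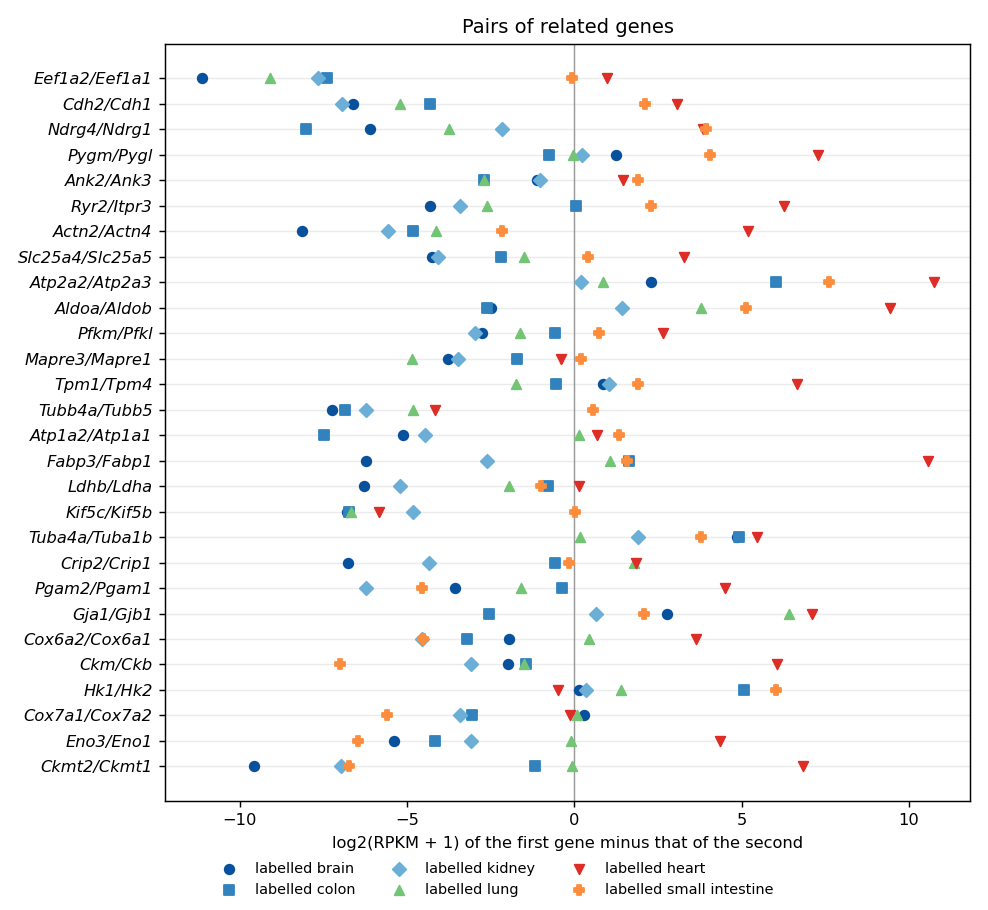
log2(RPKM + 1) of the first gene minus that of the second in each of the 6 libraries (points, by label) for 28 of the 29 pairs listed in full, ordered from the pair that separates the sides most (top). Points of the 2 libraries lie to the right of all others in the upper 15 pairs, while in the lowest rows those labelled heart and small intestine lie far apart.

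The members differed in how even they were. The range within the high side had a median of 1.68 on the log2 scale for the 283 mRNAs higher in the 4 libraries and of 0.89 for the 120 higher in the 2, where it is taken over fewer libraries. It exceeded 3 for 51 and 8 mRNAs. Among the 283, the library labelled brain was highest for 121, and that labelled colon, the least deeply sequenced, was lowest for 105. Among the 120, the library labelled heart was highest for 54 and that labelled small intestine for 66.

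Together the 283 mRNAs took 7.10%, 4.76%, 4.78% and 4.78% of all reads in the 4 libraries, and 0.597% and 0.549% in the 2. The 120 mRNAs took between 0.183% and 0.314% in the 4 libraries, 6.07% under the label heart and 2.88% under the label small intestine. The direction of these differences follows from the rule, and only their size is described. The median gap was 1.5 and 1.47. The Poisson intervals of the libraries at the edge were apart for 280 of 283 and 115 of 120 mRNAs. Members were chosen by these same values, so this count largely follows from the rule. The gap stayed at 1 or more with the interval ends for only 145 and 55. Of the 120 mRNAs, 32 were at 0 in at least 1 of the 4 libraries and 9 in all 4, among them Fgf13, St8sia5, a sialyltransferase, and Mettl23. Of the 283 mRNAs, 9 were at 0 in 1 of the 2 libraries and none in both.

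Nearest to the threshold on the side of the 4 were Ripk4, with a gap of 1.004, and Sardh, with 1.008, just inside, and Trim25 with 0.996 and Itpripl1 with 0.995 just outside. On the side of the 2, Gpsm1 and Tmco1 were just inside with 1.01 each, and Mical2 and Mgrn1 just outside with 0.999 each. The interval of the gap ran from 0.29 to 1.76 for Tmco1, so counting error alone is wider than these distances.

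Requiring a listing in all 6 libraries bore more on one side than on the other. The libraries labelled heart and small intestine listed 15850 and 16535 mRNAs, and the 4 libraries between 12827 and 15538. With an unlisted value taken as 0, 20 further mRNAs were higher in the 4 and 204 higher in the 2, which turned the split from 283 and 120 to 303 and 324. Of the 204, 78 were unlisted or at 0 in all 4 libraries. Kcnip2, a subunit of potassium channels, had 27.6 and 16.5 RPKM in the 2 libraries and was unlisted or at 0 in the 4. Kcnd2, the channel it joins, had 22.3 and 45.4 RPKM, with 2.11 under the label colon, 0.0698 under the label kidney and no listing under brain and lung. Frmd5 was at least 49.7-fold higher in each of the 2 libraries than in any of the 4, counting 3 reads as the floor in each library.

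Coding sequence length and base content were not used to choose members. The median CDS length was 1437 nt for the 283 mRNAs and 1345.5 nt for the 120, against 1521 nt for all mRNAs listed in all 6. The median share of codons that end in G or C was 62.8% and 62.4%, against 58.9%.

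Other cell types were read from lists of their markers. Of 8 smooth muscle mRNAs, 1 was higher in the 4 libraries, Lmod1, with 75.5, 13.1, 53.6 and 17.8 RPKM against 4.66 and 0.879. All 8 were above 0 in every library, with summed levels of 303 to 4666 RPKM in the 4 libraries and 39.7 and 1351 in the 2. Mylk, a kinase of smooth muscle myosin, was also a member, with 209.7, 49.9, 137 and 162 RPKM against 7.12 and 1.54. Of 17 leukocyte mRNAs 1 was a member, Ptpn6, with a gap of 1.61, and 9 were when the library labelled colon was left out, against a background of 5.62%. The summed level of the leukocyte list was 721 to 6253 RPKM in the 4 libraries and 679 and 358 in the 2. Of the 24 genes of the list, 22 were above 0 under the label heart and 20 under the label small intestine, against 19 to 23 in the 4 libraries. Cd52 and Cd3e were at 0 or unlisted in both of the 2, but Cd52 was also at 0 under the label colon and Cd3e at 0 or unlisted under the labels colon and kidney. Csf1r, a receptor of macrophages and microglia, had 19.5, 13.6, 22.3 and 24.0 RPKM against 22.3 and 39.8. None of 11 fibroblast and endothelial mRNAs was a member, with summed levels of 1069 to 7524 RPKM against 2456 and 608. The medians of these lists were 3.11 for smooth muscle, 2.03 for leukocytes and 1.02 for fibroblasts and endothelium. The part of these cell types in the members was not tested.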

How the data were processed

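Ribo-seq libraries of 6 tissues were used, 1 library per tissue, with groups taken from the labels. According to the Methods, which describe these steps for the macrophage libraries of the study, the authors trimmed adapters with Cutadapt, discarded reads under 15 nt, used STAR to align the rest to 1 mRNA per gene, that of the longest CDS, and left out multi-mapped reads and reads with over 2 mismatches. Versions are not given in the sources used here. The deposited values are RPKM on the CDS, 1 file per library, and whole reads were recovered from them (within 0.001 of a whole number). Coordinates come from GENCODE M39 (GRCm39) and promoters from RefSeq.

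Members were taken by a gap of at least 1 in log2(RPKM + 1) among mRNAs listed in all 6 libraries. Python 3.11.15 with pandas 2.3.3, numpy 2.4.6 and scipy 1.17.1 was used, and the scripts were tested on simulated data. With 1 library per tissue no test was possible, and intervals and floors cover counting error only, since PCR copies are not independent molecules. The members and gene lists were chosen with earlier results of these data known. Named were the 10 largest gaps in each direction, the 4 largest in each list, pairs with members on opposite sides, mRNAs nearest the threshold and tissue markers; other genes were chosen after their values were seen. A few items that this rule names are not reported here, though counts and medians include them. Alternatives changed the pseudocount, the gap, the filters, the scaling and the libraries used.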

Additional observations from a re-analysis of the deposited data

How the results depend on the processing

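No paired analysis was possible because each tissue has 1 library. No gene list with members turned to the other side under the settings run, and no named gap did. Changing the pseudocount or leaving out a library cannot turn a named gap. Lists without members could gain them on either side. The citrate cycle gave 19 of 29 higher in the 2 without the library labelled small intestine, against 5.83% of all mRNAs. It gave 1 of 29 higher in the 4 without that labelled heart, where 964 of all 9789 mRNAs were. For the respiratory chain these counts were 27 and 1 of 36. Fibroblasts and endothelium gave 5 of 11 higher in the 4 without the library labelled heart. They gave 1 of 11 higher in the 2 without that labelled lung, where 219 of 9789 mRNAs were. Counts of 1 are single mRNAs, and no turn of a list is read from them. The larger side turned with unlisted values taken as 0 (303 and 324). Of 91 members taken by the naming rule or named otherwise, 66 kept a gap of 1 or more under all settings that left the threshold at 1 and gave them a value. Many of these settings cannot lower a gap, namely leaving out a library, a pseudocount of 0.1, the filters and unlisted values as 0. Gaps under 1 came only with a pseudocount of 5, Kri1 left out, either scaling and thinning. The naming rule also favours large gaps. With a pseudocount of 5, 22 fell under 1, among them Cacna1c, Crb3, Mapre3, Ocln, Pkp3 and Sptb, and 9 did with either scaling, among them Crb3, F11r, Ocln, Rrm2 and Vamp8. With a pseudocount of 5 the counts higher in the 4 and in the 2 libraries were 164 and 64 of 9789 mRNAs. With a gap of 0.5 they were 584 and 272, and with a gap of 2 they were 77 and 31. List percentages under these settings are to be read beside these counts. Unlisted values taken as 0 gave 324 higher in the 2 (48.3% of the members then higher in the 4, against 70.2%), at least 10 reads in every library gave 50 (80.5%), median-of-ratios scaling 195 (50%) and quantile normalization 183 (55.1%). Among mRNAs above 0 in all 6, chosen after the data were seen, 75.7% were higher in the 4. The part of a list that were members, in percent, was with a pseudocount of 5 0 for mucosal glycosylation, 5.56 for cell cycle and 0 for smooth muscle. With a gap of 0.5 cell cycle gave 50. With a gap of 2 junctions gave 22.2, keratins 20, apical traffic 19.0, cell cycle 5.56, and glycosylation, detoxification, leukocytes, glycolysis and smooth muscle 0. At least 10 reads in every library, with 206 and 50 members of 6715 mRNAs, gave 75 for transcription and splicing factors and 42.9 for channels. Requiring 10 reads in the high side, added after the data were seen, gave 77.8 for the former (7 of 9). That filter kept all 283 members higher in the 4 and took only non-members out of this list. The share could therefore only rise.

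Leaving out 1 library loosens the rule and can only add members. Of 9789 mRNAs, 342 to 964 were then higher in the 4, most without the library labelled heart. Higher in the 2 were 143 to 856, with 52.3% to 70.5% of the members higher in the 4. The share of all mRNAs higher in the 2 thus rose from 1.23% to 8.74% without the library labelled heart. That higher in the 4 rose from 2.89% to 5.62% without that labelled colon. The list percentages that follow are to be read beside these rises. The percent of members ran from 44.4 to 70.4 for junctions, 38.1 to 66.7 for apical traffic, 66.7 to 100 for membrane proteases, 22.2 to 50 for cell cycle, 5.88 to 52.9 for leukocytes, 20 to 72 for channels, 26.7 to 66.7 for calcium handling, 28 to 60 for membrane skeleton, 13.6 to 68.2 for glycolysis, 0 to 65.5 for the citrate cycle, 0 to 75 for the respiratory chain, 13.3 to 40 for cAMP signalling, 12.5 to 50 for smooth muscle and 0 to 45.5 for fibroblasts and endothelium. For the citrate cycle, the respiratory chain and fibroblasts and endothelium, which had no members, these percentages count both directions together. The highest value was on the side of the 4 for fibroblasts and endothelium. It was on the side of the 2 for the citrate cycle and the respiratory chain. Thinned to the depth of the library labelled colon, 264 and 109 of the members were kept. Counting error is the only error these data give.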

Other observations

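Among mRNAs not listed in every library, and outside the lists, Tnnt1, a troponin T of slow skeletal muscle, had 88.3 and 68.1 RPKM in the libraries labelled heart and small intestine. In those labelled brain, kidney and lung it had 0.12, 2.85 and 2.80, and it was not listed in that labelled colon, so that it was at least 23.9-fold higher on the side of the 2. Snrpn, an imprinted splicing protein of neurons, had 19.9 and 212 RPKM against 0.131, 0.617 and 0.359, and was not listed in the library labelled kidney. In the other direction Sigirr, an inhibitory receptor of the interleukin 1 family, had 51.4, 87.0, 27.0 and 24.0 RPKM in the 4 libraries and 1.20 in that labelled heart, and was not listed in that labelled small intestine. These genes were chosen after their values were seen.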
